A study of Mus musculus with 4 samples.

Results

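The fat-rich spots were the 60 spots, of 7424 kept in the 4 sections, in which the largest share of the counted transcripts came from Adipoq, Plin1, Cidec and Cfd. These genes mark adipocytes. Adipoq encodes the hormone adiponectin, Plin1 (perilipin 1) coats the lipid droplet, Cidec helps droplets to fuse, and Cfd encodes adipsin, a serine protease of the complement system that fat cells secrete. The 4 genes chose the spots, so their own levels are given as a description and were kept out of every test. The other 7364 kept spots of the same sections were the reference, and 30 of the fat-rich spots lay in the day 1 section, 7 in the day 4, 16 in the day 7 and 7 in the day 14 section.

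Each section was cut from the heart of 1 adult ICR mouse after myocardial infarction (MI), so the groups are days 1, 4, 7 and 14 with 1 mouse each. The sample titles give day 1 for the earliest section, while the study's text does not name its day the same way throughout. All 4 mice had the left anterior descending artery (LAD) tied off permanently under isoflurane, with buprenorphine against pain, and no unoperated heart was among them. RNA was captured on 10x Visium slides, whose barcoded spots each collect RNA from a small patch of tissue that can hold several cells of different types. Days therefore cannot be told apart from mice or sections, and no test between days was made. The files held 9102 spots under tissue with 10983077 to 17315715 unique molecular identifiers (UMIs, 1 per captured transcript) per section, and spots with over 1% hemoglobin UMIs or under 500 UMIs were removed.

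White adipocytes store triglyceride in a large lipid droplet, make fatty acids from glucose when insulin is high, release them by lipolysis in fasting, and secrete hormones. In the rodent heart such cells are known from the fat on the outer surface, near the atrioventricular groove and the great vessels, and brown-like fat lies close by around the aorta. Heart muscle, in contrast, burns fatty acids and holds its own fatty acid binding protein, Fabp3, where fat cells and capillaries hold Fabp4.

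The share of UMIs in the 4 genes ran from 3.46% in a day 1 spot down to 0.0948% in the last member, a day 1 spot with 1 such UMI among 1055. The first spot left out, also of day 1, had 1 among 1061, or 0.0943%, so the edge of the set rests on single molecules. The median share was 0.234%. At least 10 UMIs of the 4 genes were found in 27 members, at least 5 in 39 and exactly 1 in 6. All 4 genes were seen in 13 members and Cfd alone in another 13. Of the UMIs of the 4 genes in kept spots, 945 (65.0%) fell in the members, and 360 other spots held the remaining 509. In members, Adipoq was at 801, 355, 611 and 293 CPM (UMIs of a gene per 1000000 UMIs of the summed spots) on days 1, 4, 7 and 14, and Cfd at 5753, 2273, 6997 and 1319.5 CPM. In the other spots of the same sections Adipoq lay at 2.10, 1.19, 0.972 and 0.447 CPM. Of the kept spots in the day 1 section 1.59% were fat-rich (exact 95% interval 1.08 to 2.27%). The share was 0.418% (0.168 to 0.860%) at day 4, 0.874% (0.501 to 1.42%) at day 7 and 0.344% (0.138 to 0.707%) at day 14, where the intervals cover counting error only.

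**Figure D1:**
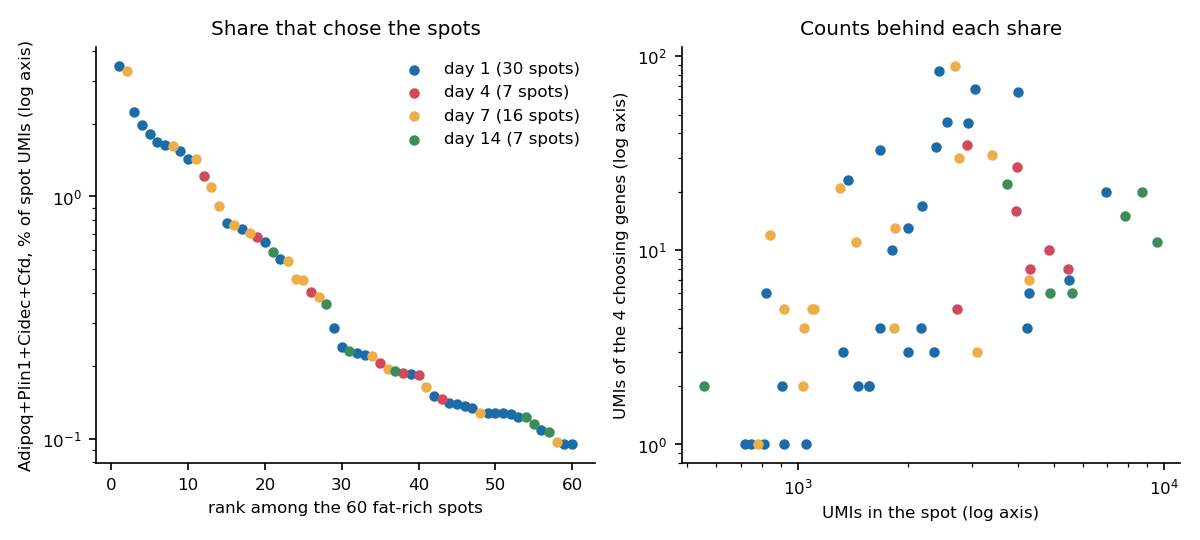
Share of UMIs in Adipoq, Plin1, Cidec and Cfd for the 60 fat-rich spots by rank (left, log axis) and the counts behind it (right, both axes log), each point 1 spot coloured by section. The share falls from 3.46% to 0.0948%, and the lowest points on the right hold 1 UMI of the 4 genes.

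Fat-rich spots were shallow. Taking days 1, 4, 7 and 14 in that order, their median spot held 1900.5, 3961, 1371.5 and 5619 UMIs, against 6478.5, 8826, 5237.5 and 8419 in the other spots. The median share of mitochondrial transcripts was 9.38, 13.1, 11.5 and 23.1% in fat-rich spots against 25.7, 30.7, 24.5 and 34.3% in the others, and that of ribosomal protein transcripts was 9.55, 9.16, 7.51 and 5.43% against 4.36, 4.79, 4.90 and 4.43%. Against all other spots each of the 3 measures differed in 1 direction in 4 of 4 sections, for which the exact two-sided sign-flip permutation p was 0.125, the smallest that 4 sections allow. The members with at least 5 UMIs of the 4 genes had medians of 2430, 3961, 1442 and 6735 UMIs on days 1, 4, 7 and 14. A share can be high where few other transcripts were captured, so the rule may favour shallow spots, which was not tested. For that reason a second comparison, chosen after seeing the data, used the 756 other spots (88, 144, 77 and 447 on days 1, 4, 7 and 14) that held no more UMIs than the median fat-rich spot of their section. These were shallower than the fat-rich spots, with medians of 1322.5, 2530, 976 and 2133 UMIs. Their median mitochondrial share was 18.5, 6.45, 4.25 and 10.5%, so fat-rich spots were lower on day 1 and higher on days 4, 7 and 14, and their ribosomal share was 8.87, 9.20, 8.20 and 8.54%, above that of fat-rich spots on days 4, 7 and 14. The directions of both shares thus turned in 3 of 4 sections against these spots.

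UMIs were summed per section and spot class, and edgeR's quasi-likelihood test with the section as a block was run on 10198 genes with Benjamini-Hochberg adjustment. Against all other spots 208 genes were higher (2.04% of those tested) and 36 lower (0.353%) in fat-rich spots, 2.39% together, and 1179 genes had an unadjusted p under 0.05. Of the 208, 120 were higher in all 4 sections (1.18% of tested genes), and 27 of the 36 were lower in all 4 (0.265%). The median log2 fold change over all tested genes was 0.33, and single values are to be read beside it. Against the shallower other spots the test called 28 genes higher (0.275% of 10197) and 35 lower (0.343%), with a median of -0.22, and 20 of the 28 and 3 of the 35 were also among the first calls. The counts depend on scaling and on single sections. With scaling factors (TMM, the trimmed mean of M-values) taken from all tested genes, as first planned, 83 were higher and 293 lower and the median was -0.29. The factors were instead taken from the 1000 genes of most UMIs, a choice made after a run on simulated counts. Values of that run with the planned factors are not given here. DESeq2 called 77 higher and 99 lower with a median of -0.06, but gave an adjusted p to 3080 genes only. A gene not called by DESeq2 may therefore have had no adjusted p there. Total UMIs gave 231 and 29. Without the day 1, 4 or 7 section 68, 125 or 93 genes were higher and 13, 12 or 12 lower, and without day 14 the counts were 251 and 61. Genes of adipocyte RNA come with the 4 genes that chose the spots, so their rise describes what the spots hold. In spots, more cells of a type and more RNA per cell cannot be told apart.

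Genes for making fatty acids and triglyceride gave more calls than any other adipocyte list. Of 27 genes on that list 24 were tested, 12 were higher and none was lower, where 2.04% of all tested genes were higher. The list's median was 1.44 beside 0.33 over all genes. The 12 were Fasn, Acaca, Thrsp, Slc25a1, Gpd1, Acly, Srebf1, Scd2, Me1, Dgat2, Acss2 and Agpat2. Fasn, the fatty acid synthase, was at 326, 426, 2344 and 195 CPM in fat-rich spots and at 29.96, 31.1, 29.4 and 23.4 CPM in the others on days 1, 4, 7 and 14. It was higher in every section, and the day 7 value stood far above the other 3. Its log2 fold change was 4.30 ± 0.34, with edgeR adjusted p = 1.88e-25, and 3.10 ± 0.40 against the shallower spots (adjusted p = 1.75e-11). Here and below, each ± value was derived afterwards from the size of the change and the F statistic of edgeR's test. It is not a standard error estimated by the fit, and it adds nothing to the p-value. Acaca, which makes the malonyl-CoA that Fasn uses, had 3, 0, 21 and 1 UMIs in fat-rich spots on days 1, 4, 7 and 14, so its log2 fold change of 4.24 (adjusted p = 8.83e-11) rests mainly on day 7. Thrsp, a regulator of lipogenesis, was at 44.5, 426, 849 and 122 CPM against 37.3, 27.4, 22.8 and 44.1 CPM, close to the other spots on day 1 and above them on days 4 and 7 (log2 fold change 3.07 ± 0.45, adjusted p = 7.49e-08). Gpd1, which supplies the glycerol backbone, rose by 2.70 (adjusted p = 9.20e-07) and Dgat2, which adds the last fatty acid to triglyceride, by 1.15 (adjusted p = 0.00903). Against the shallower spots 6 genes of the list were called, Thrsp, Scd1, Fasn, Gpd1, Dgat2 and Acsl1, all higher, with a list median of 1.47. Of all tested genes 0.275% were called higher there. DESeq2 called 7 of the list higher against all other spots, where it called 77 of 3080 genes with an adjusted p higher.

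Scd1, the stearoyl-CoA desaturase, was far higher in 1 section than in the others. It was at 563, 142, 8049 and 97.7 CPM in fat-rich and 14.1, 11.5, 22.9 and 6.19 CPM in other spots. On day 7 it counted 237 UMIs, 95 of them in a single spot, and was still at 5309 CPM without that spot. It was higher in 4 of 4 sections but did not pass the main test (log2 fold change 5.84 ± 1.44, edgeR adjusted p = 0.316). DESeq2 called it (adjusted p = 8.06e-13), as did the comparison with shallower spots (log2 fold change 3.61 ± 0.42, adjusted p = 5.16e-14). Summed over the list without the choosing genes, synthesis transcripts made up 3811, 3409.7, 17661 and 3030.1 CPM of fat-rich spots, 2.84, 2.62, 13.2 and 1.98 times the level in other spots on days 1, 4, 7 and 14, and the day 7 ratio had an exact 95% counting interval of 12.1 to 14.4. Scd1 alone gave 237 of the 520 UMIs behind the day 7 sum, so that ratio does not describe the list evenly.

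The stretches before the start of these genes are given as a description. RefSeq promoters on GRCm38.p6, the build that mm10 stands for, were found for 9 of the 12 called synthesis genes, with 12 promoters in all because some genes have several starts. In the 250 bases before the start, the CCAAT box (CCAAT on either strand) was found in 7 of these 12 and in 33.8% of all 32851 mouse promoters in the table. The GC box (GGGCGG) was found in 7 of 12 against 32.7% of all, and the TATA box (TATAAA) in 0 of 12 against 12.4%. The E-box (CACGTG) was found in 1 of 12 against 6.02%. The sterol element (TCACNCCAC, N any base), a direct repeat of AGGTCA and the C/EBP palindrome (TTGCGCAA) were each found in 0 of 12. Their shares of all promoters were 1.05, 0.0335 and 0.164%. Such a match is a string of letters and was not tested as a binding site. The Fasn and Thrsp promoters are shown because these synthesis genes passed against both sets of other spots and had an entry, and that of Adipoq stands for the genes that chose the spots, each from 5′ to 3′ on the gene's strand with the CCAAT letters (ATTGG on the other strand) in capitals. They lie at chr11:120824548-120824797 (minus strand), chr7:97417551-97417800 (minus strand) and chr16:23146286-23146535 (plus strand).
Fasn: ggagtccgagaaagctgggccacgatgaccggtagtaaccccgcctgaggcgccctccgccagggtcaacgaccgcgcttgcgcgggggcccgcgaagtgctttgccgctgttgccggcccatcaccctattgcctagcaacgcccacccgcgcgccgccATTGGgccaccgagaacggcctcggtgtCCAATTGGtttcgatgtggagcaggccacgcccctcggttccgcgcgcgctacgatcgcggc
Thrsp: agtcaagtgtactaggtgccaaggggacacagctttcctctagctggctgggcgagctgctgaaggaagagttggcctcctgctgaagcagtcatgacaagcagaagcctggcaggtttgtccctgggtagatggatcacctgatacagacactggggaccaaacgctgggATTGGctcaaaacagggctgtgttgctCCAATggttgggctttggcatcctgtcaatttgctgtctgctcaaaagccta
Adipoq: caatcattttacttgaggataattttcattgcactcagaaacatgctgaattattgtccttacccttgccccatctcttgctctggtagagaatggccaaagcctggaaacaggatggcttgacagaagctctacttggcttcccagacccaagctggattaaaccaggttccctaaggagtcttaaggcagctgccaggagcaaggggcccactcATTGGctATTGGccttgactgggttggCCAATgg
The Adipoq and Fasn stretches each hold 3 such motifs, and in Fasn the forward and the reverse one next to the start overlap. Thrsp holds 2.

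Car3 had the largest log2 fold change of the 10198 tested genes against all other spots, without passing that test. It encodes carbonic anhydrase 3, an abundant protein of fat cells and slow skeletal muscle, and was on no list, so it was chosen after its values were seen. Car3 (chr3:14863512-14872523, plus strand) was at 3707, 2025, 2785 and 1075 CPM in fat-rich spots and at 8.67, 3.77, 88.2 and 2.75 CPM in the others, with UMIs in 46 of the 60 members. Every section showed a wide gap, and the other spots of day 7 stood above those of the other 3 sections. Its log2 fold change was 7.83 ± 1.22, with an edgeR adjusted p of 0.169 that misses the threshold, a DESeq2 adjusted p of 2.20e-39, and against the shallower spots 6.04 ± 0.37 with adjusted p = 1.30e-53.

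**Figure D2:**
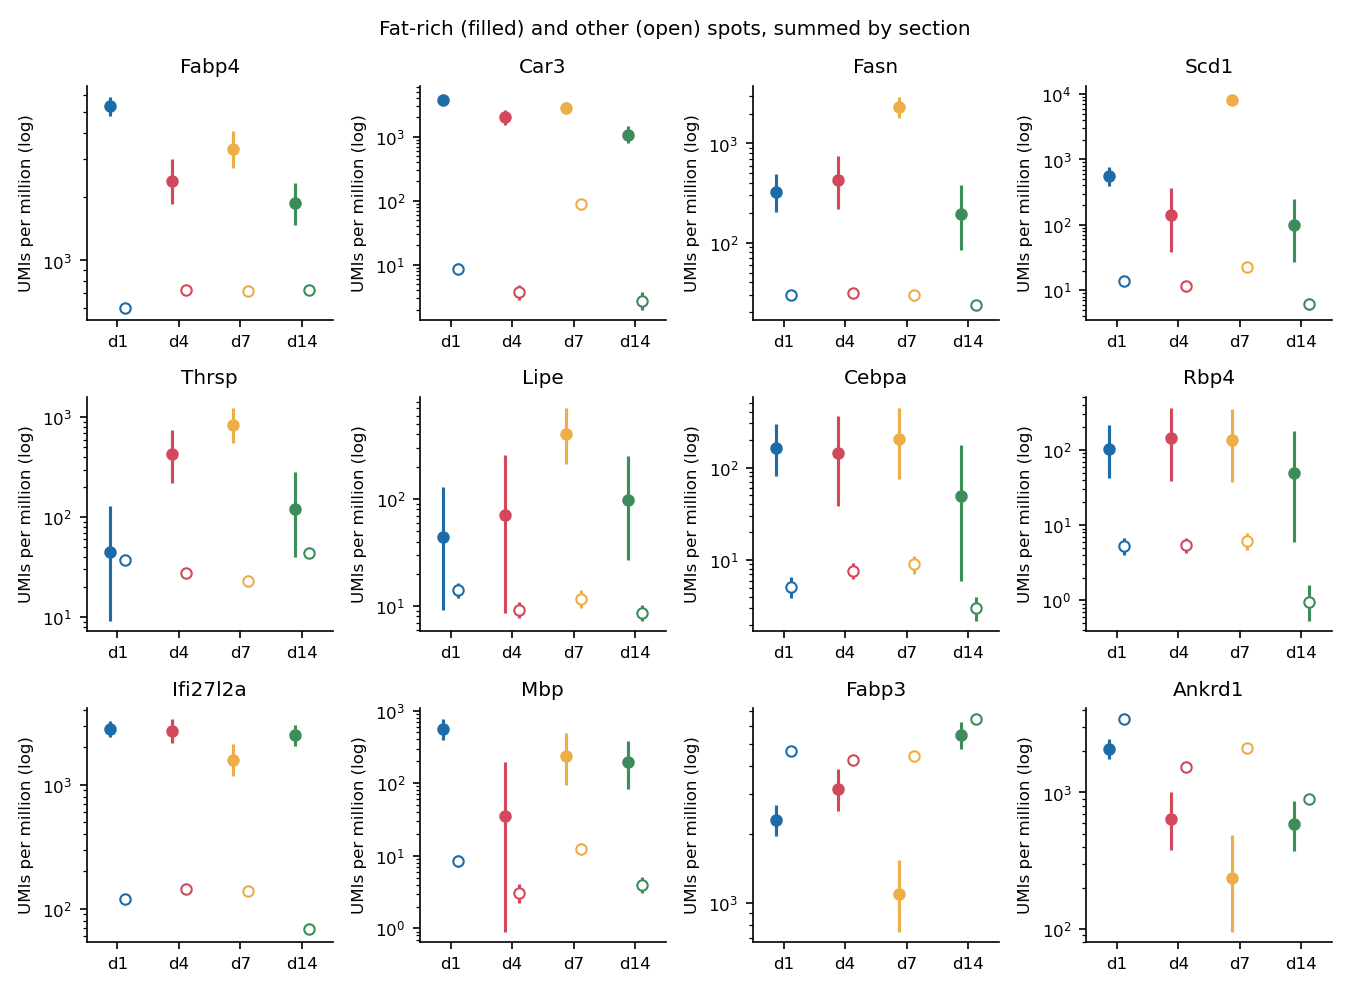
Levels of 12 genes in CPM (log axis) for fat-rich spots (filled) and other spots (open), summed within each section, with exact 95% Poisson intervals. Fabp4, Car3, Fasn, Scd1, Lipe, Cebpa, Rbp4, Ifi27l2a and Mbp sit above the other spots on all 4 days, Fabp3 and Ankrd1 sit below them, and the intervals overlap for Lipe on days 1 and 4, Mbp on day 4 and Thrsp on days 1 and 14.

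The fatty acid binding proteins moved in opposite directions. Fabp4 was at 5338, 2379.7, 3362 and 1857 CPM in fat-rich spots against 599.6, 729.8, 717 and 728 CPM, higher in 4 of 4 sections and seen in 51 members (log2 fold change 2.08 ± 0.22, adjusted p = 4.87e-18). It stayed higher against the shallower spots (2.58 ± 0.30, adjusted p = 3.38e-14). Fabp3 was at 2313, 3161, 1087 and 5474 CPM against 4643, 4265, 4422 and 6434 CPM and was lower in every section (log2 fold change -0.93 ± 0.20, adjusted p = 6.31e-04), but against the shallower spots its value was 0.43 ± 0.28 with adjusted p = 0.936, so the direction turned. On the uptake list of 12 genes, all tested, Fabp4 and Angptl4, an inhibitor of lipoprotein lipase, were higher and Fabp3 lower, with a median of -4.67e-04 beside 0.33. Of all tested genes 2.04% were higher and 0.353% lower. Lpl, the lipase itself, and Cd36, the fatty acid carrier, did not pass edgeR's test, at -0.52 (adjusted p = 0.219) and -0.09 (adjusted p = 0.939), but DESeq2 called Lpl lower (adjusted p = 0.00549), and against the shallower spots their values turned to 0.89 and 0.93, which did not pass. Dbi, the acyl-CoA binding protein, named after its values were seen, was at 1735, 1137, 1834 and 782 CPM against 336, 275, 262 and 318 CPM (log2 fold change 2.11 ± 0.24, adjusted p = 9.77e-16).

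Of the lipolysis list 8 of 16 genes were tested and Lipe and Mgll were higher, where 2.04% of all tested genes were. The list median was 1.20. Lipe, hormone-sensitive lipase, was at 44.5, 71.04, 408 and 97.7 CPM against 13.97, 9.22, 11.7 and 8.68 CPM (log2 fold change 3.49 ± 0.53, adjusted p = 3.06e-08), and had 3, 2, 12 and 4 UMIs behind it. Mgll, which splits monoglyceride, was at 297, 178, 408 and 171 CPM against 89.5, 73.2, 109 and 87.7 CPM (log2 fold change 1.48 ± 0.34, adjusted p = 0.00170). Pnpla2, which opens the triglyceride molecule, was at 0.88 (adjusted p = 0.0597) against all other spots and passed against the shallower ones (1.94 ± 0.39, adjusted p = 3.89e-04). All 15 droplet genes were tested, and Plin2, Plin4, Cav1, Cavin1 and Bscl2 were higher by edgeR and none by DESeq2, with a median of 0.85 (1.03 with Cideb, which had no UMI in fat-rich spots, at the limit that a count of 0 allows). Plin4, a coat protein of adipocyte droplets, was at 311, 142, 67.9 and 195 CPM against 81.1, 104, 61.04 and 66.5 CPM, and was the droplet gene that also passed against the shallower spots (log2 fold change 1.93 ± 0.50, adjusted p = 0.0207). The caveolae genes Cav1 and Cavin1, which endothelium expresses too, had values of 0.89 and 0.04 there and did not pass.

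Among secreted products and receptors 11 of 22 list genes had enough UMIs to be tested. Rbp4, Rarres2, Sncg and Adipor2 were higher, where 2.04% of all tested genes were, and the list median was 0.65. Rbp4, the retinol carrier that fat secretes, was at 104, 142, 136 and 48.9 CPM against 5.22, 5.38, 6.16 and 0.958 CPM (log2 fold change 4.57 ± 0.62, adjusted p = 1.06e-10), from 17 UMIs in 12 members. Rarres2, the chemokine-like chemerin, was at 608, 462, 408 and 171 CPM against 96.8, 93.7, 90.1 and 43.5 CPM (adjusted p = 1.24e-10), and its value against the shallower spots, 1.18 ± 0.38, did not pass. Retn, which encodes the adipocyte hormone resistin, fell under the limit of 200 UMIs for a test, yet 50 of its UMIs lay in 27 members and 40 in all other kept spots. Per section that was 311, 249, 408 and 244 CPM against 0.842, 0.489, 1.19 and 0.766 CPM, in 12, 4, 6 and 5 members on days 1, 4, 7 and 14. Lep, leptin, had 4 UMIs in members and 2 elsewhere. The sums of the list stood 3.72, 3.02, 4.24 and 3.80 times the level of the other spots on the 4 days, and the intervals of all 4 ratios overlapped.

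Of 16 adipocyte transcription factors tested, Cebpa alone was called, where 2.39% of all tested genes were. Cebpa, a driver of adipocyte differentiation, was at 163, 142, 204 and 48.9 CPM against 5.05, 7.61, 8.97 and 3.001 CPM (log2 fold change 4.51 ± 0.56, adjusted p = 8.92e-13) and also passed against the shallower spots (adjusted p = 0.0207). Pparg, the other main driver, had 4 UMIs in all 60 members and did not pass (2.59 ± 1.03, adjusted p = 0.211), a depth at which its absence cannot be shown. Of the brown and beige list 10 of 22 genes were tested. Letmd1, a mitochondrial gene needed by brown fat, was higher (2.73 ± 0.79, adjusted p = 0.0286, from 8 UMIs, not called by DESeq2 or against the shallower spots) and Cox7a1, a subunit that heart, muscle and brown fat share, was lower (-0.76 ± 0.22, adjusted p = 0.0234), and the Cox7a1 direction turned against the shallower spots (0.45 ± 0.29). Ucp1, the uncoupling protein that defines brown and beige adipocytes, had 1 UMI in the members, on day 7, and 3 in all other kept spots. None of 17 fatty acid oxidation genes and none of 11 insulin signalling genes passed edgeR's test. That test called 2.39% of all tested genes, so lists this short can hold no call. DESeq2 called the oxidation genes Acadl, Etfdh, Hadhb and Cpt1b lower. The edgeR medians were -0.40 and 0.61, and the oxidation median turned to 0.58 against the shallower spots.

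**Figure D3:**
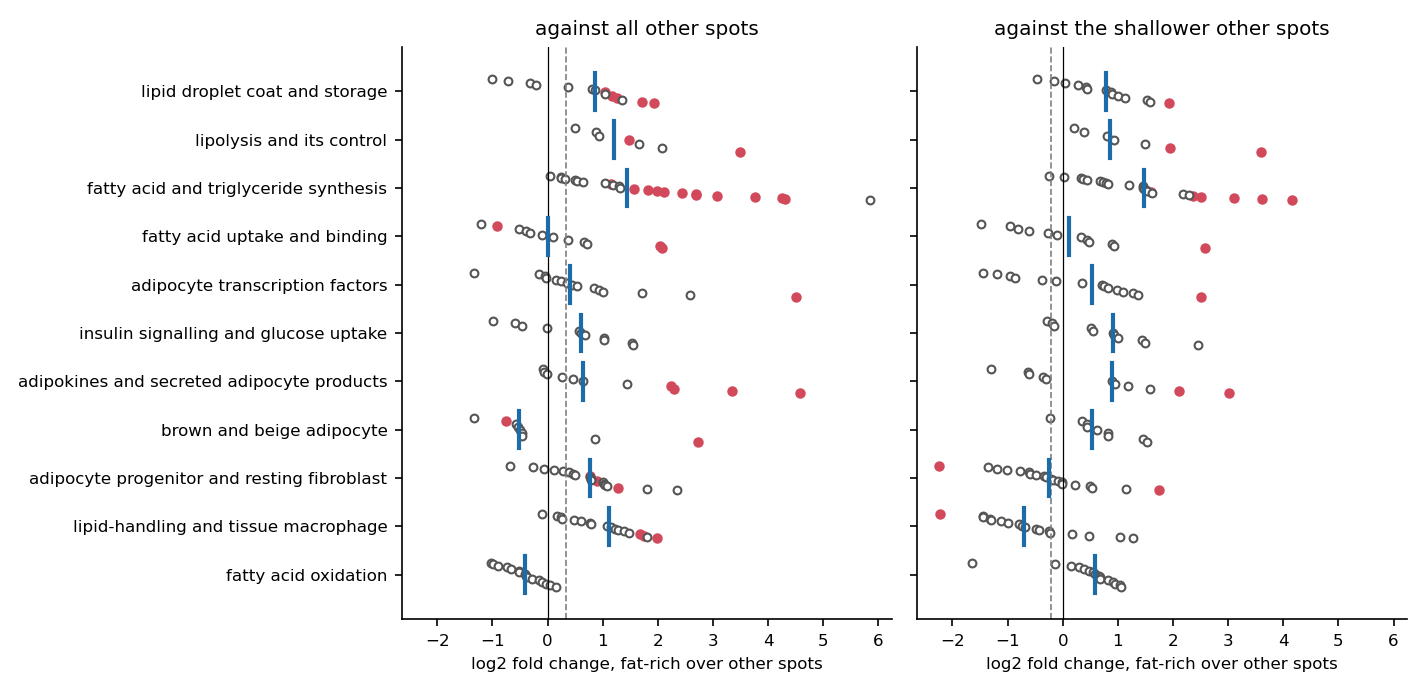
Log2 fold change of each tested gene of 11 lists, fat-rich over all other spots (left) and over the shallower other spots (right); red points passed at adjusted p under 0.05, the blue bar is the list's median and the dashed line the median of all tested genes (0.33 and -0.22). Genes with no UMI in fat-rich spots enter the medians but are not drawn; the synthesis list has the highest median in both panels (1.44 and 1.47), and the uptake, brown and beige, progenitor, macrophage and oxidation medians change sides of the dashed line.

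Ifi27l2a, an interferon-inducible gene of mitochondria, was the most abundant of the 20 genes with the largest rises in every section. It was at 2832, 2735, 1596 and 2517 CPM against 119, 144, 139.9 and 69.1 CPM, was seen in 48 members, and kept its rise against the shallower spots (log2 fold change 4.35 ± 0.24 and 3.27 ± 0.31, adjusted p = 2.61e-67 and 3.47e-22). The others included enzymes of metabolism and detoxification, namely Tkt of the pentose phosphate pathway (3.89), Pygl, a glycogen phosphorylase (4.13), Gpd2 of the glycerol phosphate shuttle (3.09), Nnmt, which methylates nicotinamide (4.01), the glutathione transferases Mgst1 (2.99) and Gstz1 (2.98), Ltc4s, which makes leukotriene C4 (3.06), and the inositol kinase Itpk1 (3.21). Slc1a5, a glutamine carrier (3.25), Trf, the iron carrier transferrin (3.51), the matrix protein Efemp1 (3.85) and the scaffold Mapk8ip1 (3.37) completed them with Mbp, Rbp4, Cebpa, Fasn, Lipe, Sncg and Thrsp. All 20 passed at an edgeR adjusted p of at most 0.0133 against all other spots. Some of them rest on few UMIs in fat-rich spots. On days 1, 4, 7 and 14 Gpd2 had 1, 2, 2 and 2 and Mapk8ip1 had 2, 1, 3 and 1. Ltc4s had 10, 1, 1 and 2 and Pygl had 4, 1, 14 and 1. Against the shallower spots Mbp (1.43 ± 0.48), Trf (1.01 ± 0.36), Efemp1 (2.70 ± 0.76), Ltc4s (1.62 ± 0.75) Pygl, Nnmt, Mapk8ip1, Itpk1 and Gpd2 did not pass.

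Hp, haptoglobin, which adipocytes and neutrophils make, was named after its values were seen. It was at 3247, 923, 408 and 122 CPM against 14.6, 39.7, 45.5 and 6.58 CPM, and 219 of its 262 UMIs in members came from day 1. It was not called against all other spots (5.15 ± 1.32, adjusted p = 0.334) and was called against the shallower ones (2.14 ± 0.36, adjusted p = 4.65e-06).

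Mbp, a protein of the myelin sheath, had the largest rise among the called genes that were higher in every section. Mbp was at 563, 35.5, 238 and 195 CPM against 8.50, 3.07, 12.4 and 4.02 CPM (log2 fold change 5.30 ± 0.43, adjusted p = 8.65e-32). In the shallower other spots it was at 401, 10.97, 96.03 and 16.6 CPM, and it did not pass against them (1.43 ± 0.48, adjusted p = 0.227).

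Other cell types moved with the spots and differed between sections. Of 12 cardiomyocyte markers 9 were lower (median -0.82), but the summed level was 0.546, 0.730, 0.324 and 1.06 times that of the other spots on days 1, 4, 7 and 14, and against the shallower spots the median turned to 0.42 with none called. Myh6 and Tnnt2, which define cardiomyocytes, were present in 54 and 52 of 60 members. On the fast skeletal muscle list 8 of 12 genes were called higher, yet their UMIs came from day 7, where Myh1 counted 137 UMIs and had 0 on the other days, and the summed ratios were 0.563, 0.617, 4.14 and 0.792. On days 1, 4 and 14 only Acta1 and Ckm of this list had UMIs in fat-rich spots, and Ckm is on the cardiomyocyte list too. DESeq2 called 5 of the 12, and none was called against the shallower spots. Mesothelial genes Msln and Upk3b were higher too (4.23 ± 1.03 and 3.58 ± 0.80), with 12 of 15 Msln UMIs on day 4 and 24 UMIs of the 10 markers there, a ratio of 62.9, and 0 on day 14. The day 4 UMIs were uneven over the spots. The 10 markers made up 0.484% of the UMIs in 1 day 4 member and 0.202% in another. In every other day 4 member they made up at most 0.0368%. Lymphatic Flt4 rose by 2.50 (adjusted p = 0.0360) with 7 of its 9 UMIs on day 4, and Jchain of plasma cells by 2.87 (adjusted p = 0.0334) with all 7 UMIs on day 1. In the list of B and plasma cells Cd74, which macrophages also express, was higher too. The calls of Msln, Upk3b, Flt4, Jchain and Cd74 were made by edgeR against all other spots and by neither DESeq2 nor the comparison with shallower spots, where Jchain and Cd74 turned to -0.32 and -0.19. None of the 10 blood endothelial, 10 smooth muscle and pericyte and 5 neutrophil genes tested passed. With 2.39% of all tested genes called, lists this short can hold no call. The lung and airway list had 0 UMIs in fat-rich spots. T and NK cell, mast cell and thymus markers had too few UMIs to be tested. The part of these cell types in the other results was not tested.

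**Figure D4:**
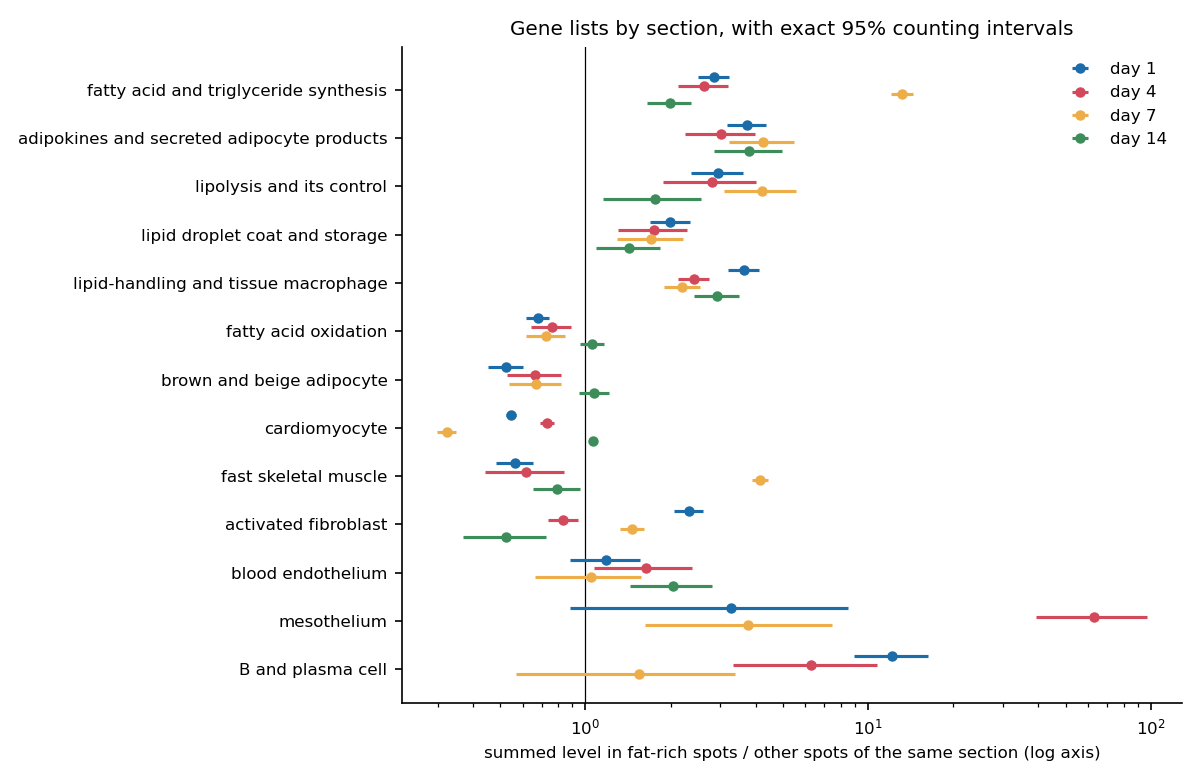
Summed level of 13 gene lists in fat-rich spots divided by that in other spots of the same section (log axis), with exact 95% counting intervals; colours are sections, and lists with no UMI in fat-rich spots on a day (mesothelium and B and plasma cell, day 14) have no point there. Adipokine, lipolysis and droplet lists lie above 1 in all 4 sections, synthesis is highest on day 7, and cardiomyocyte, skeletal muscle and activated fibroblast lists fall on both sides of 1.

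Some macrophage and stromal genes were called higher against all other spots, where 2.04% of all tested genes were. Of the 18 lipid-handling and tissue macrophage genes tested, Apoe, Cd9 and Lgals3 were higher (median 1.12). The list summed to 3.63, 2.42, 2.20 and 2.92 times the other spots on days 1, 4, 7 and 14. Apoe, the lipid carrier of macrophages and fat, was at 1913, 7352, 4619 and 2297 CPM against 419.7, 2082, 2082 and 687 CPM (1.68 ± 0.21, adjusted p = 6.06e-13), but its value was -0.25 ± 0.28 against the shallower spots, where the list's median turned to -0.71 and Spp1 was lower. Of 20 progenitor and resting fibroblast genes, Gsn, Dcn and Col6a2 were higher by edgeR and none by DESeq2, and Gsn, gelsolin, kept its rise against the shallower spots (1.74 ± 0.29, adjusted p = 1.27e-06). Gsn was at 3395, 2912, 2072 and 3103 CPM against 1315, 1411, 1878 and 1379 CPM, above the other spots on days 1, 4 and 14 and close to them on day 7.

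The 10 genes with the largest falls in every section were Kcnip2, a potassium channel subunit of heart muscle (-2.37), Hspb8 (-1.59), Nppb, the natriuretic peptide (-1.56), N-cadherin Cdh2 (-1.52), Ptgds (-1.49), mt-Nd4l (-1.36), the stress gene Ankrd1 (-1.30), Postn, periostin of activated fibroblasts (-1.18), Fhl2 (-1.12) and mt-Co1 (-1.03), where Fhl2 and mt-Co1 turned to 0.12 and 0.48 against the shallower spots. Ankrd1, Nppb and Postn were also called lower against the shallower spots, where the remaining 5 had values of -0.50 to -1.37 that did not pass. Kcnip2 had 3 UMIs in all fat-rich spots, and Cdh2 and Nppb had 0 there on days 4 and 7. Ankrd1 was at 2091, 639, 238 and 586 CPM against 3435, 1523, 2128 and 889.9 CPM (adjusted p = 1.00e-05), and 55 of its 190 UMIs came from 1 day 1 spot. Postn was at 44.5, 355, 442 and 0 CPM against 56.8, 801, 933 and 84.7 CPM, with 0 UMIs on day 14 and a log2 fold change of -3.02 ± 0.40 against the shallower spots (adjusted p = 5.25e-11). Scar genes were among the falls against the shallower spots, with 7 of 11 activated fibroblast markers called lower, where 0.343% of all tested genes were. They were Postn, Fn1, Col1a1, Col1a2, Cthrc1, Lox and Timp1, and the list median was -2.13. That list summed to 4905, 39259, 57168 and 14491 CPM in the shallower other spots on days 1, 4, 7 and 14 and to 4419, 9341, 14808 and 879.7 CPM in fat-rich spots.

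Fat-rich spots were then set against 2 kinds of spot from the same sections, the 60 richest in mesothelial Msln, Upk3b, Upk1b and Lrrn4 and the 60 richest in Col1a1, Col1a2 and Col3a1. Mesothelium-rich spots could be compared on days 1, 7 and 14 (6, 37 and 17 spots) and collagen-rich spots on days 4 and 7 (8 and 49 spots). Against mesothelium-rich spots, 2 of 10123 genes were higher (0.0198%), Fasn (4.92 ± 1.09, adjusted p = 0.0290) and Car3 (4.31 ± 0.92, adjusted p = 0.0290), 0.0296% with the lower one, and 253 genes had an unadjusted p under 0.05. Fasn counted 99 UMIs in fat-rich and 7 in mesothelium-rich spots of those days, and Car3 376 and 68, of which all 68 lay on day 7. The gene that was lower (0.00988%) was C2, a complement component, with 0 UMIs in fat-rich and 45 in mesothelium-rich spots, at least 12.8-fold lower when 0 is taken as 3 UMIs over those sections (edgeR adjusted p = 0.0437). DESeq2 called 4 genes higher and none lower there, and no gene passed without the day 1, day 4 or day 7 section. Retn, not tested, had 43 UMIs in fat-rich and 0 in mesothelium-rich spots, at least 16.8-fold higher by the same limit.

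Against collagen-rich spots 12 of 10122 genes were higher (0.119%) and 12 lower (0.119%), 0.237% together, and 9 of the former (0.0889%) were higher and 12 of the latter lower on both days. In all, 612 had an unadjusted p under 0.05. Car3 counted 139 UMIs in fat-rich and 2 in collagen-rich spots of days 4 and 7 (log2 fold change 8.67 ± 1.38, adjusted p = 3.74e-06), and Scd1 241 and 3 (7.38 ± 1.46, adjusted p = 0.00140). Several of the higher genes had no UMI in collagen-rich spots, so only a lower bound holds. Thrsp was at least 38.1-fold higher (37 UMIs against 0), Acaca 21.6-fold, Gpd1 19.6-fold, Mbp 8.23-fold and the muscle genes Mybpc1 17.5-fold and Rpl3l 12.3-fold, each at least, with 0 taken as 3 UMIs over the 2 sections. In fat-rich spots all 21 Acaca and 17 Mybpc1 UMIs lay on day 7, as did 18 of 19 for Gpd1 and 7 of 8 for Mbp. Fasn (81 UMIs against 11) and the creatine kinases Ckm and Ckmt2 were also higher. The lower genes were matrix and scar genes, among them Postn at 399 CPM against 6675 CPM (-4.43 ± 0.90, adjusted p = 0.00146), the collagen crosslinking enzyme Lox (1 UMI against 122), Cthrc1 (3 against 176), Ptn, Thbs2, Col12a1, Mrc2, Ltbp2, Aspn, Col16a1, Col5a1 and Srpx2. The collagen-rich spots were chosen by collagen, so scar genes come with the choice. The 24 calls became 83 without the day 1 section and 128 without day 14, and could not be fitted without day 4 or day 7. These comparisons share the fat-rich spots with the one against all others.

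The 60 spots were also set side by side by their choosing share. The 30 spots of the highest share (0.238% and above; 14, 3, 11 and 2 spots on days 1, 4, 7 and 14) and the 30 below it (16, 4, 5 and 5 spots) had median depths of 2093.5 and 2258.5 UMIs. Fabp4 was at 6562 CPM in the first and 1521 CPM in the second group, Car3 at 5048 and 859, Scd1 at 3735 and 248, and Retn at 548 and 124. Ifi27l2a was at 3793 and 1604 CPM, and Gsn had the other order, at 1774 and 3891 CPM. Among muscle and mitochondrial genes, mt-Co1 was at 22872 and 50433 CPM and Fabp3 at 1673 and 3985 CPM. The split used the same share that chose the spots, so an order of adipocyte genes between the 2 groups comes with the choice. These values are also pooled over sections whose levels differ and which the groups hold in different numbers. Of the 283 Scd1 UMIs, 237 were on day 7. Share and section therefore cannot be told apart, and no test was made.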

How the data were processed

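Sections were processed and sequenced by the authors with Space Ranger 1.3.0 on mm10, per the labels' processing notes, which also name Seurat 4.1.1. The deposited values are UMI counts of 32285 genes per spot, not normalized. Each section is 1 mouse, so sections are the replicates. Spots were chosen as the report opens with, and positions on the slide were not used.

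Counts were summed per section and class, and genes of at least 200 UMIs over kept spots were tested with edgeR 4.0.16 (R 4.3.3, robust quasi-likelihood test, section as block). Against all other spots the fit left 3 residual degrees of freedom. The median prior degrees of freedom, the weight of the spread shared by all genes, were infinite. Where they are infinite, a small p-value rests on that shared spread and not on the gene's own spread between mice. The ± values come from the F statistic of the same test, so this holds for them too. The 4 choosing genes and 8 hemoglobin genes stayed out of the tests but in the totals. The test was run on simulated data first. TMM factors came from the 1000 genes of most UMIs, a change from the plan. DESeq2 1.42.0, other filters, spot choices, thinning to 500 UMIs and leaving out sections were alternatives. Intervals (exact, 95%) cover counting error only, and a count of 0 was taken to allow 3 UMIs.

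Named genes were the 20 highest and 10 lowest log2 fold changes among genes called and moved alike in every section, plus the listed genes. Some results among the tested genes and lists are not reported here. Members and lists were chosen with earlier results of these data known. Fat-rich libraries held 67443, 28155, 29443 and 40923 UMIs on days 1, 4, 7 and 14, which limits the precision.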

Additional observations from a re-analysis of the deposited data

Results flagged for a closer look

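Among 1500 spots removed for hemoglobin with at least 500 UMIs, 13 (0.867%) had a share of the choosing genes at or above that of the last member. This was near the 0.808% of kept spots that were members. A count of 0 would have allowed up to 0.2%. Of the 13, 2, 0, 4 and 7 lay in the sections of days 1, 4, 7 and 14. Among the 1500 removed spots, 6 held at least 5 such UMIs.

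Some lists lay above the other spots in one section and below them in another, beyond their counting intervals, and these differences between sections were not tested. The uptake list was at 1.17 times the other spots on day 1 and at 0.854 on day 7. The cardiomyocyte list was at 1.06 on day 14 and at 0.546, 0.730 and 0.324 on days 1, 4 and 7. The fast skeletal muscle list was at 4.14 on day 7 and at 0.563, 0.617 and 0.792 on days 1, 4 and 14. On those 3 days only Acta1 and Ckm of the list had UMIs in fat-rich spots, and Ckm is also a marker on the cardiomyocyte list. The values of those days therefore do not describe skeletal muscle alone. Activated fibroblast genes were at 2.32 and 1.47 on days 1 and 7 and at 0.834 and 0.526 on days 4 and 14. The B and plasma cell list was at 12.1 and 6.26 on days 1 and 4 and at 0 on day 14. All 13 UMIs behind the day 4 value were of Cd74, which macrophages also express, so that value does not show B or plasma cells.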

How the results depend on the processing

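The counts of calls moved with most settings. The named results mostly kept their direction. They were chosen because they were called and moved alike in every section, so this agreement came largely with the choice. There were 49 named results, each 1 gene in 1 comparison, so a gene named in several comparisons counts more than once. Over their alternatives, 801 values kept direction and side of the threshold and 147 kept direction but no longer passed. Alternatives in which a gene was not tested or had no adjusted p are not in these counts. The other 2 reversed, both against the shallower other spots, with Fhl2 at 0.12 and mt-Co1 at 0.48. Sections of at least 2 spots gave the main fit again against all other spots, so agreement there was fixed in advance. Against all other spots the 208 higher and 36 lower genes became 77 and 99 with DESeq2, of 3080 genes with an adjusted p. They became 83 and 293 with TMM factors from all tested genes and 48 and 3 with no section block. With 15 spots per section they were 97 and 9, and with Adipoq and Plin1 only 88 and 13. The higher genes numbered 131 with 30 spots, 125 with 120 spots, 131 with spots of at least 1000 UMIs, 135 with hemoglobin of at most 0.5%, 18 with spots thinned to 500 UMIs and 28 against the shallower spots, and the lower ones 67 with no hemoglobin filter. Leaving out 1 section gave 68 to 251 higher and 12 to 61 lower. The 3 calls against mesothelium-rich spots became 5 with genes of at least 50 UMIs, with spots of at least 1000 UMIs and with hemoglobin of at most 0.5%, 26 with no section block, 8 with 120 spots, 11 with 15 per section, 76 with no hemoglobin filter, 0 with thinning (edgeR, 30 genes at an unadjusted p under 0.05) and 0 to 9 with a section left out (8 to 373 genes at an unadjusted p under 0.05 by edgeR). The 24 against collagen-rich spots became 57 with DESeq2, which gave an adjusted p to 504 genes there. They became 14 with TMM from all genes, 50 with genes of at least 1000 UMIs and 321 with no section block. With 120 spots they were 561, with 15 per section 210, without Cfd 53 and with Adipoq and Plin1 only 116. Spots of at least 1000 UMIs gave 84, no hemoglobin filter 312 and sections of at least 2 spots 116. Thinning gave 1, and leaving out a section gave 83 to 128. The cause of these moves was not tested. With 30 spots neither of these last comparisons gave a value. The tests are paired by section, since the section block ties the spot classes of 1 mouse. In simulated counts the test recovered few changed genes at this depth, so a gene not called here may still differ.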
